A study of Mus musculus with 2 samples.

Results

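*Clgn*, *Calr3*, *Pdilt*, *Ace*, *Tpst2*, *Tex101*, *Cmtm2a* and *Cmtm2b* encode proteins that fold, modify or accompany the surface proteins of sperm. They were taken by gene symbol, each symbol matched a single row, and they form 8 of the 50686 genes of the matrix, which also holds 1182 rows for repeats. The values come from single-cell RNA sequencing (3' counting in droplets) of the testes of 2 untreated wild-type littermates of the strain C57Bl/6J Crl, aged 8 weeks, with 1 library per mouse. Both animals carried no transgene or engineered allele and form 1 group, so that differences between cell populations were tested over 2 mice and differences between the mice were not tested. A UMI is a tag that marks 1 captured RNA molecule. The libraries held 27450497 UMIs in 1237 cells for mouse 1 and 30302332 UMIs in 1315 cells for mouse 2, and no barcode was shared between them. The cells came from enzymatic digestion and filtering through a strainer, which the study chose to reduce somatic cells.

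Proteins bound for the sperm surface are made in the endoplasmic reticulum (ER) of spermatocytes and spermatids, where they receive N-glycans and, in part, a GPI anchor. *Clgn* (calmegin) and *Calr3* (calsperin) are germ cell relatives of the lectin chaperones calnexin and calreticulin, and *Pdilt* is a germ cell relative of protein disulfide isomerase. *Ace* encodes angiotensin-converting enzyme, of which the testis makes its own shorter form, *Tpst2* encodes a Golgi enzyme that sulfates tyrosines, *Tex101* a GPI-anchored glycoprotein, and *Cmtm2a* and *Cmtm2b* encode membrane-spanning proteins of the chemokine-like factor family. Male mice that lack *Clgn*, *Calr3*, *Pdilt*, *Ace*, *Tpst2*, *Tex101* or both *Cmtm2* genes are known to be infertile or subfertile, in most of these lines with ADAM3 missing from sperm or misplaced on them.

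The cells were grouped by K-means into 9 clusters from principal components that did not include the 8 genes or the gene lists described below, and 2532 germ cells were ordered by diffusion pseudotime. In that order the 6 large clusters were numbered 1 (early spermatocyte-like, 162 cells), 2 (pachytene or later spermatocyte-like, 527 cells), 3 (left without a name, 692 cells), 4 (round spermatid-like, 446 cells), 5 and 6 (both elongating or condensing spermatid-like, 196 and 509 cells). Of the markers of the named class, 8 of 14 in cluster 1, 8 of 14 in cluster 2, 11 of 12 in cluster 4 and 12 of 12 in clusters 5 and 6 had at least 1.5 times their CPM in all cells. Cluster 1 also had 5 of 14 pachytene markers at that level, and 1 of these, *Piwil1*, was among its leading genes. Cluster 3 was led by *Ssxb1* and *Ssxb2*, with 3 of 14 pachytene and 0 of 12 round spermatid markers at that level. Cluster 5 also had 9 of 12 round spermatid markers. The median depth lay between 18820.5 and 23634 UMIs per cell in clusters 1 to 5 and was 11702 in cluster 6. Spermatogonium-like (8 cells), Sertoli-like (7) and Leydig-like (5) cells were too few to be tested. *Prm1*, the protamine of condensing spermatids, was found in every cell of the Sertoli-like and Leydig-like clusters. It stood there at 2536 and 2090 CPM, against 80065 CPM in cluster 6. Whether these counts came from free RNA in the droplets was not tested.

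The positions of the genes on GRCm38 (GENCODE M21) place 4 of them on chromosome 8. *Calr3* lies at 72424176 to 72443870 on the minus strand with 9 exons, and *Clgn* at 83389867 to 83428552 on the plus strand with 15 exons. *Cmtm2a* (104281042 to 104293181, minus strand, 5 exons) and *Cmtm2b* (104322230 to 104330764, plus strand, 4 exons) point away from each other, with 29049 bases between their starts. *Pdilt* (119486587 to 119523489) and *Tex101* (24668007 to 24676675) lie on the minus strand of chromosome 7 with 12 and 7 exons. *Ace* lies on the plus strand of chromosome 11 (105967945 to 105989964, 25 exons) and *Tpst2* on the plus strand of chromosome 5 (112276691 to 112315361, 7 exons).

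The sequences shown are those in which the genes could be compared with each other. *Cmtm2a* and *Cmtm2b* are given first, because the 250 bases before their RefSeq starts (GRCm38.p6) were nearly the same sequence. They are chr8:104293182-104293431 on the minus strand and chr8:104321977-104322226 on the plus strand, written 5′ to 3′, with capitals at bases that differ or have no partner in the alignment.

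Cmtm2a: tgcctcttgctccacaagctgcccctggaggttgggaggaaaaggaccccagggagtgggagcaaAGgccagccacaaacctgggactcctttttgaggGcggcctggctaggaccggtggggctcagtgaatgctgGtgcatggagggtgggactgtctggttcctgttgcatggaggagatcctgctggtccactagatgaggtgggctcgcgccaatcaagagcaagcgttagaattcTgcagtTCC

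Cmtm2b: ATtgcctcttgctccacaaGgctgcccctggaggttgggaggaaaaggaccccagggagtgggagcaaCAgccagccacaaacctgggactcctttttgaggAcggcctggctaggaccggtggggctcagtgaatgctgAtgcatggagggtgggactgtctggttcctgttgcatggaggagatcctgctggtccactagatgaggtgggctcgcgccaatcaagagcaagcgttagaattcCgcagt

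Of 247 aligned bases of these promoters, 242 were identical. Their longest coding transcripts were less alike, with 69.6% of 856 aligned bases identical. Of the 403 windows of 98 bases (the length of the RNA read) in the last 500 bases of each transcript, 0 occurred in the other gene, and the closest windows differed at 54 bases for *Cmtm2a* and 22 for *Cmtm2b*. Reads from the 3' ends of both genes could therefore be told apart.

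For *Ace* and *Calr3*, 2 of the genes with high levels in spermatids, the promoters shared the 8 bases TGAGGTCA. RefSeq lists 2 starts for *Ace*, and the inner one, at 105975189 and 7241 bases after the outer one, lies between exons 12 and 13 of the longest transcript, where the testis form begins. The 150 bases before it are chr11:105975039-105975188 on the plus strand. The 250 bases before the outer start of *Calr3* are chr8:72443779-72444028 on the minus strand. Capitals mark TGAGGTCA and, in *Calr3*, also TGACG, which stands there as CGTCA on the other strand.

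Ace: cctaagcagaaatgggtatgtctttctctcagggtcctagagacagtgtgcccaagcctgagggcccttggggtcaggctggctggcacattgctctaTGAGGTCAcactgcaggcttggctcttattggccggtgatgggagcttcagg

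Calr3: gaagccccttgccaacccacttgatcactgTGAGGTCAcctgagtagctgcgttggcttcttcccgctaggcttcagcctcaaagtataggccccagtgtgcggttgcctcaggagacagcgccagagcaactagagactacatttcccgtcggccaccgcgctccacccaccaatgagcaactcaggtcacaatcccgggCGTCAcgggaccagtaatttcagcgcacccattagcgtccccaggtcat

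TGAGGTCA lay at bases -52 to -45 from the inner start of *Ace* and at -220 to -213 from the outer start of *Calr3*. It occurs on either strand in 712 of the 32851 promoter windows of RefSeq, which run from 250 bases before to 50 after a start, and it was added to the search after these sequences had been seen. Of the motifs chosen earlier, TGACGTCA (1.79% of all windows) was in no window of the 7 genes with an entry, and TGACG (20.8%), which is part of TGACGTCA, was in those of *Calr3* and *Tpst2*. GTTGCC (12.5%) was found in *Calr3*, CAGTT (44.8%) in *Cmtm2a*, *Cmtm2b*, *Pdilt* and *Tpst2*, and GGGCGG (35.7%) in *Ace*, *Cmtm2a*, *Tex101* and *Tpst2*. The table holds no entry for *Clgn*. Counts at the 3' end do not show which start of *Ace* was used.

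Along the ordering, the 8 genes reached their highest levels at different points, in nearly the same order in both mice. The germ cells were split into 20 bins with about 127 cells each, and the level is given as CPM, the UMIs of a gene scaled to the same total of UMIs. *Tex101* and *Tpst2* were highest in bin 1, *Clgn* in bins 3 and 4 of mouse 1 and mouse 2, *Cmtm2b* in bins 5 and 3, *Cmtm2a* in bins 7 and 5, *Pdilt* in bins 15 and 14, *Calr3* in bin 16 of both, and *Ace* in bins 20 and 19. In the last bin *Ace* stood at 100% and 98.1% of its highest level, *Calr3* at 13.3% and 13.8%, *Clgn* at 4.35% and 3.54%, and *Pdilt* at 3.11% and 2.81%.

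**Figure D1:**
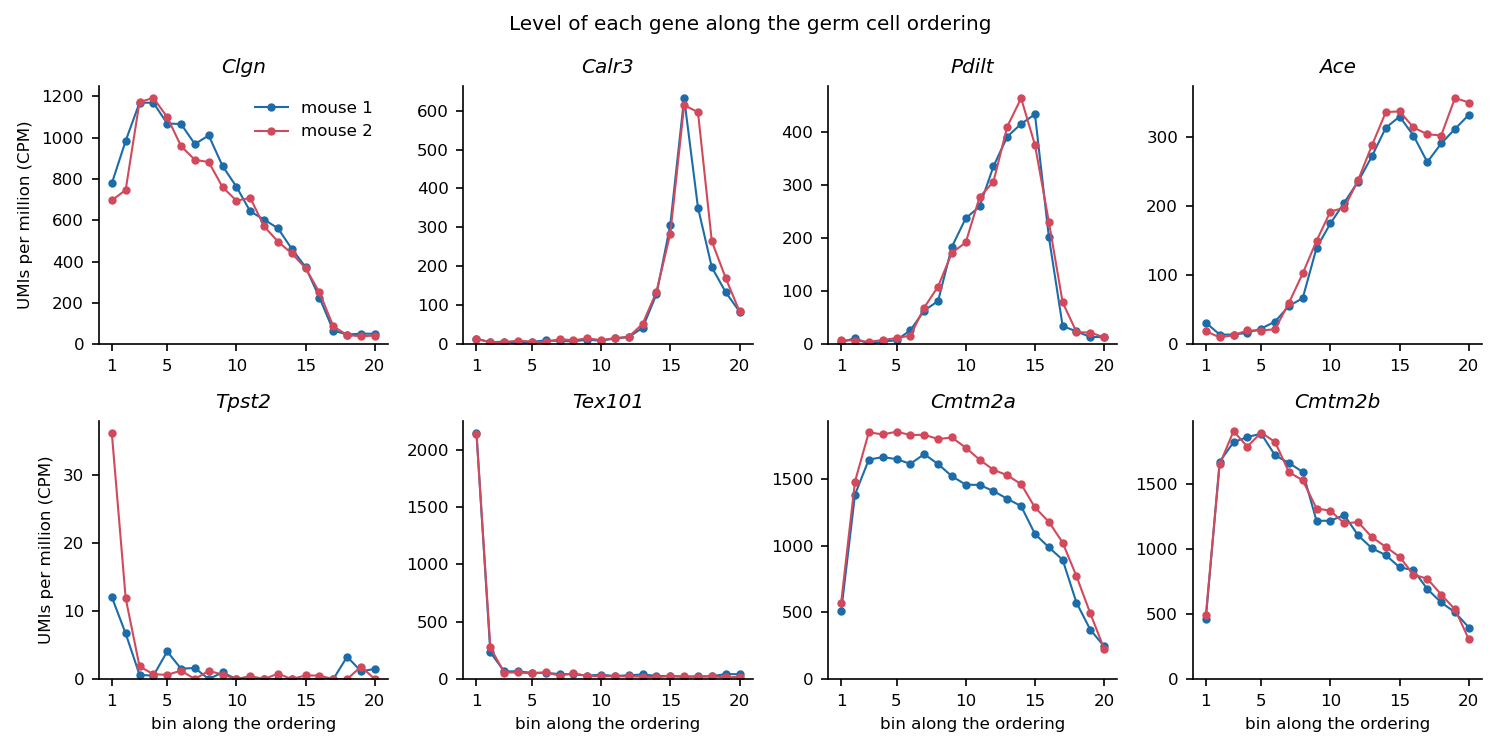
Level of each gene in CPM (y axis, from 0, scaled per gene) in 20 bins of germ cells along the ordering (x axis), summed separately for mouse 1 (blue) and mouse 2 (red). *Tex101* falls to its low level within the first bins, *Clgn* and both *Cmtm2* genes decline over most of the course, *Pdilt* and *Calr3* form peaks at bins 14 to 16, and *Ace* stays high to the end.

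The fold changes below come from edgeR's quasi-likelihood test on UMIs summed per mouse and cluster, with TMM scaling and p-values adjusted over all 14108 genes tested. The TMM factors fell from 1.66 in cluster 1 to 0.487 in cluster 6. When the total count alone set the scale, as it does for CPM, the median log2 fold change of all genes was -0.22, -0.09, -0.31, -0.57 and -0.60 in the 5 consecutive comparisons, against 0.01, -0.04, -0.06, -0.07 and -0.01 with TMM. Fold changes of the later steps are therefore given under both scales where the call or the direction differs, here or with the signs that turned. Neighbouring comparisons share the cluster between them.

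The chaperone *Clgn* was highest in spermatocytes, in cluster 2. Its CPM in mouse 1 and mouse 2 was 780 and 709 in cluster 1, 1104 and 1012 in cluster 2, 868 and 784 in cluster 3, 529 and 488 in cluster 4, 275 and 279 in cluster 5, and 57.3 and 46.9 in cluster 6. The order was thus 2, 3, 1, 4, 5 and 6, with no overlap between the mice of neighbouring clusters, and the mean ± SD in cluster 2 was 1058 ± 65.0 CPM (n = 2). Per cell, cluster 2 held 37.4 and 34.4 *Clgn* UMIs and cluster 6 held 0.722 and 0.640. *Clgn* rose from cluster 1 to 2 (log2 fold change 0.78 ± 0.13 SE, edgeR adjusted p = 3.7e-05) and fell in each later step, most from cluster 5 to 6 (-1.81 ± 0.15, edgeR adjusted p = 2.2e-09). The fall from 2 to 3 (-0.30 ± 0.13, edgeR adjusted p = 0.047) passed in 4 of 11 alternative fits and that from 4 to 5 (-0.37 ± 0.13, edgeR adjusted p = 0.030) in 8 of 11.

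*Calr3*, the relative of calreticulin, appeared late and within a short stretch. It stood at 4.79 and 5.63 CPM in cluster 2, at 13.2 and 13.8 in cluster 3, at 76.9 and 88.3 in cluster 4, at 550 and 587 in cluster 5, and at 205 and 259 in cluster 6. Cluster 1 had 11.2 and 10.7 CPM. The mice of different clusters did not overlap, and the mean was highest in cluster 5 (568 ± 26.5 SD, n = 2). *Calr3* rose from cluster 3 to 4 (log2 fold change 2.86 ± 0.17, edgeR adjusted p = 5.4e-12) and from 4 to 5 (3.29 ± 0.15, edgeR adjusted p = 7.5e-14). It then fell into cluster 6 by 0.70 ± 0.14 (edgeR adjusted p = 0.00027), or by 1.30 on the scale of total counts. The values from cluster 1 to 2 (-0.82 ± 0.28, edgeR adjusted p = 0.017, passed in 7 of 11 alternatives) also passed. So did those from 2 to 3 (1.44 ± 0.20, edgeR adjusted p = 1.9e-06, passed in 11 of 11). The levels behind both steps lie below those estimated for free RNA. *Prm1*, scaled by the levels over all cells, put free *Calr3* RNA at 13.5, 9.27 and 15.3 CPM in clusters 1, 2 and 3, where 10.9, 5.14 and 13.5 CPM were measured over both mice. In cluster 2 the measured level was 0.55 times the estimate, so the estimate is too high there. The source of these low values was not tested, so they are not read as expression. The rise from cluster 3 to 4 is a lower bound only if they were free RNA.

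*Pdilt*, the relative of protein disulfide isomerase, came on between both. Its CPM was 9.36 and 7.85 in cluster 1, 4.98 and 6.17 in cluster 2, 157 and 179 in cluster 3, 388 and 393 in cluster 4, 311 and 291 in cluster 5, and 18.3 and 20.6 in cluster 6. No neighbours in its order overlapped, and its mean was highest in cluster 4 (390 ± 3.74 SD, n = 2). *Pdilt* rose from cluster 2 to 3 (log2 fold change 4.98 ± 0.17, edgeR adjusted p = 7.3e-16). This is a lower bound if the level in cluster 2 was free RNA, which was not tested. The scaling used for *Calr3* put free *Pdilt* RNA at 13.7 CPM there. Only 5.48 CPM were measured over both mice, so the estimate is too high for this gene. *Pdilt* rose again to cluster 4 (1.46 ± 0.13, edgeR adjusted p = 2.7e-09) and fell from 5 to 6 (-3.36 ± 0.16, edgeR adjusted p = 8.7e-13). Between clusters 4 and 5 the fold change was 0.13 ± 0.13 with TMM (edgeR adjusted p = 0.43) and -0.38 ± 0.12 with total counts (edgeR adjusted p = 0.0097), so its direction depended on the scale.

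Ratios of UMIs within 1 cluster and mouse depend on no scaling. For every 1 *Clgn* UMI there were 0.145 and 0.181 *Calr3* UMIs in cluster 4, 2.002 and 2.101 in cluster 5, and 3.57 and 5.53 in cluster 6. *Calr3* therefore passed *Clgn* in UMIs between clusters 4 and 5 in both mice. The ratio of *Calr3* to *Pdilt* went from 0.198 and 0.225 in cluster 4 through 1.77 and 2.02 in cluster 5 to 11.2 and 12.6 in cluster 6. In cluster 6 *Clgn* and *Pdilt* were at 4.92% and 4.98% of their highest levels, and *Insl3*, a Leydig cell gene that germ cells do not make, had 16.5 CPM there against 9.74 to 12.3 in clusters 1 to 5. How much free RNA adds to the low values in cluster 6, and so to these ratios, was not tested. *Pdilt* and *Clgn* came closest in cluster 5, at 1.13 and 1.04 *Pdilt* UMIs for each *Clgn* UMI.

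*Ace*, a peptidase on the cell surface, rose in the same steps as *Pdilt* but was still high in cluster 6. It stood at 28.1 and 15.3 CPM in cluster 1, 14.9 and 14.2 in cluster 2, 124 and 152 in cluster 3, 281 and 298 in cluster 4, 315 and 317 in cluster 5, and 296 and 325 in cluster 6. The mice of clusters 4, 5 and 6 overlapped in part, as cluster 6 overlapped with both others, and all 3 lay above cluster 3. *Ace* rose from cluster 2 to 3 (log2 fold change 3.30 ± 0.17, edgeR adjusted p = 1.2e-13) and from 3 to 4 (1.31 ± 0.15, edgeR adjusted p = 1.3e-07). The rise from 2 to 3 is a lower bound if the level in cluster 2 was free RNA, as the scaling used for *Calr3* puts it. The later steps, 0.63 ± 0.15 from 4 to 5 (edgeR adjusted p = 0.0010) and 0.57 ± 0.15 from 5 to 6 (edgeR adjusted p = 0.0033), passed with TMM. With total counts they were 0.13 ± 0.14 (edgeR adjusted p = 0.46) and -0.03 ± 0.14 (edgeR adjusted p = 0.91). In UMIs per cell, *Ace* had 7.49 and 8.22 in cluster 5 and 3.74 and 4.43 in cluster 6. Each *Pdilt* UMI was matched by 1.01 and 1.09 *Ace* UMIs in cluster 5 and by 16.2 and 15.8 in cluster 6, on 65 and 64 *Pdilt* UMIs. The antisense gene *Gm11651*, with 1572 UMIs, overlaps *Ace* over 17750 bases, and whether strand was used in counting is not given in the sources used here.

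*Tpst2*, the tyrosine sulfating enzyme, was the gene with the fewest counts, 148 UMIs in 124 cells. Cluster 1 held 11 and 71 of them, or 10.3 CPM (exact Poisson 95% interval 5.14 to 18.4) and 29.3 CPM (22.9 to 37.0). Cluster 2 had 2.39 and 2.41 CPM, and cluster 3 had 0.844 and 0.598 CPM. Mouse 2 was higher in cluster 1, by more than the counting error, and this difference was not tested because each mouse is 1 sample. *Tpst2* fell from cluster 1 to 2 (log2 fold change -2.93 ± 0.41, edgeR adjusted p = 3.3e-06) and from 2 to 3 (-1.68 ± 0.61, edgeR adjusted p = 0.020). In the 446 cells of cluster 4 there were 0 UMIs in mouse 1, which allows up to 0.701 CPM, and 2 in mouse 2, so that no later change was detectable at this depth. Intervals and such limits cover counting error only.

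*Tex101*, a GPI-anchored protein of germ cells, had the steepest decline. Its CPM was 1801 and 1504 in cluster 1, 72.8 and 80.6 in cluster 2, 41.4 and 32.7 in cluster 3, 33.0 and 20.5 in cluster 4, 21.3 and 26.9 in cluster 5, and 31.9 and 19.6 in cluster 6. Cluster 1 lay far above the rest, clusters 2 and 3 did not overlap, and the 3 lowest overlapped with each other. *Tex101* fell from cluster 1 to 2 (log2 fold change -4.16 ± 0.19, edgeR adjusted p = 4.7e-13). From 2 to 3 it fell by 0.9999 ± 0.19 on the log2 scale (edgeR adjusted p = 7.2e-05). Of all *Tex101* UMIs in the 6 clusters, 69.5% came from the 162 cells of cluster 1. The step from 5 to 6 was called higher with TMM (0.68 ± 0.25, edgeR adjusted p = 0.033) but not with total counts (0.09 ± 0.26, edgeR adjusted p = 0.84), on 44 and 76 UMIs in cluster 5 and 113 and 61 in cluster 6. In CPM it was higher in mouse 1 and lower in mouse 2. The spermatogonium-like cells, with 939 and 569 CPM in 4 cells each, lay between clusters 1 and 2. The Sertoli-like cells, 6 in mouse 1 and 1 in mouse 2, had 317 and 327 CPM, from 27 UMIs in 4 cells. The 5 Leydig-like cells had 0, which allows up to 59.2 CPM.

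*Cmtm2a* and *Cmtm2b* were the most abundant of the 8 genes in UMIs, with 80944 and 73836, and were found in 97.5% and 98.8% of all cells. Among these were 6 and 7 of the 7 Sertoli-like cells and 2 and 4 of the 5 Leydig-like cells. The part of free RNA in these shares was not tested. *Cmtm2a* stood at 652 and 827 CPM in cluster 1, 1609 and 1771 in cluster 2, 1576 and 1774 in cluster 3, 1344 and 1486 in cluster 4, 974 and 1198 in cluster 5, and 563 and 627 in cluster 6. *Cmtm2b* stood at 595 and 802, 1891 and 1908, 1289 and 1307, 1022 and 1079, 809 and 832, and 579 and 558 CPM in the same clusters. Clusters 2 and 3 overlapped for *Cmtm2a* and not for *Cmtm2b*.

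Both rose from cluster 1 to 2, *Cmtm2a* by a log2 fold change of 1.44 ± 0.17 (edgeR adjusted p = 2.3e-07) and *Cmtm2b* by 1.69 ± 0.16 (edgeR adjusted p = 1.0e-08). *Cmtm2b* then fell from 2 to 3 (-0.49 ± 0.15, edgeR adjusted p = 0.0077), where *Cmtm2a* had a value of 0.05 ± 0.16. From 3 to 4 *Cmtm2a* had 0.006 ± 0.16 with TMM and -0.24 ± 0.14 with total counts (edgeR adjusted p = 0.99 and 0.14). *Cmtm2b* had -0.06 ± 0.15 and -0.31 ± 0.12 (edgeR adjusted p = 0.81 and 0.046), so it was called lower with total counts only. From cluster 4 to 5 the values were 0.13 ± 0.16 and 0.15 ± 0.15 with TMM and -0.38 ± 0.14 and -0.36 ± 0.13 with total counts (edgeR adjusted p = 0.025 and 0.022), which turned the direction. From 5 to 6 they were -0.28 ± 0.16 and 0.06 ± 0.16 with TMM and -0.87 ± 0.14 and -0.53 ± 0.13 with total counts (edgeR adjusted p = 4.2e-05 and 0.0021). Per *Cmtm2b* UMI there were 0.851 and 0.928 *Cmtm2a* UMIs in cluster 2, 1.22 and 1.36 in cluster 3, 1.32 and 1.38 in cluster 4, and 0.973 and 1.12 in cluster 6. The share of *Cmtm2a* in both was higher in cluster 3 than in cluster 2 in 2 of 2 mice. The exact 95% intervals did not overlap (45.5% to 46.5% against 54.2% to 55.8% in mouse 1). These intervals cover counting error only, and in cluster 2 those of the mice did not overlap either (47.5% to 48.7% in mouse 2). By the lower of both mice's values, *Cmtm2a* and *Cmtm2b* were the pair of the 8 genes with the most alike course over the 20 bins. Their Pearson's r was 0.923 and 0.941 in mouse 1 and mouse 2 on log2(CPM + 10). The bins share library, depth and cells, and this is a description. *Cmtm1* and *Gm45711* overlap *Cmtm2a* on the same strand and held 108 and 48 UMIs.

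**Figure D2:**
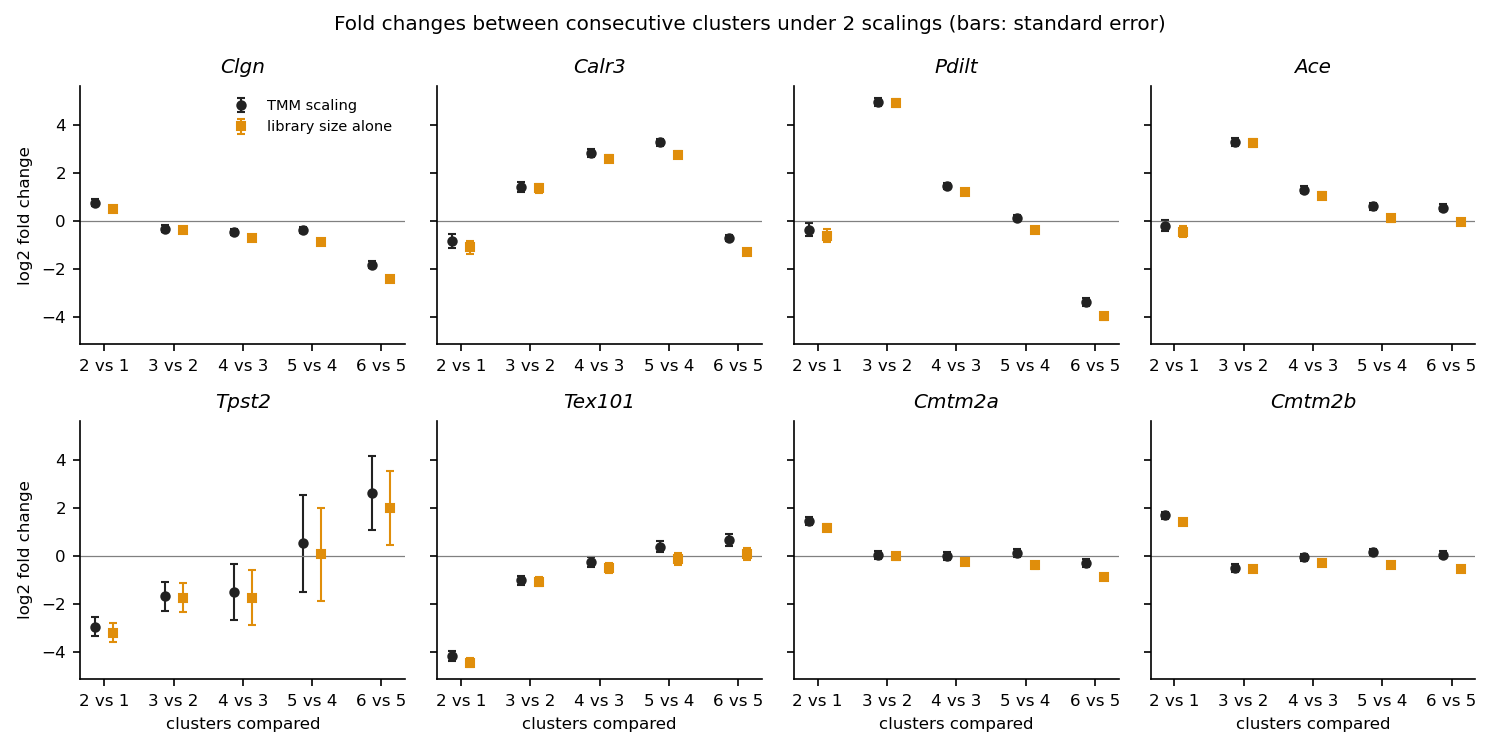
Log2 fold change (y axis) of each gene between consecutive clusters (x axis), from edgeR with TMM scaling (black circles) and with total counts (orange squares), bars showing 1 standard error. Both scales give like values for the first steps, and the orange points lie lower by about the shift of all genes in the steps from 4 to 5 and 5 to 6, where *Pdilt*, *Ace*, *Tex101* and the *Cmtm2* genes change sign or lose a call.

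Counted over the 8 genes, 3 were called higher and 3 lower from cluster 1 to 2, where 25.9% and 24.5% of all 14108 genes tested were. From cluster 2 to 3 the counts were 3 higher and 4 lower, against 31.8% and 31.3% of all genes, and from 3 to 4 they were 3 and 1, against 25.9% and 20.3%. From 4 to 5, 2 were higher and 1 lower, against 23.4% and 20.9%, and from 5 to 6, 2 were higher and 3 lower, against 16.4% and 23.7%. Changes between these clusters were thus common among all genes. The clusters were made from the other genes, without the 8 genes and the lists. The shares of all genes are therefore in part set by the clustering, and how far was not tested. The 3 called lower from cluster 1 to 2 and the 3 called higher from 2 to 3 both include *Calr3*, whose levels in clusters 1 to 3 are not read as expression. Of all calls, 51.4%, 50.5%, 56.1%, 52.8% and 40.9% were higher in the 5 steps with TMM, against 39.5%, 47.5%, 40.1%, 30.5% and 14.3% with total counts. RLE factors, a further scaling, gave 38.1% in the first step and 53.3% in the last. With total counts the 2 last comparisons gave 1 and 0 higher and 4 and 5 lower. Of all genes, 17.4% and 6.11% were higher and 39.5% and 36.7% lower on that scale.

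The share of cells with a UMI followed the levels after every cell had been thinned to 5000 UMIs. *Clgn* was found in 98.4% and 99.1% of the cells of cluster 2 (100% of both unthinned, at median depths of 19812 and 22017) and in 25.6% and 17.5% of those of cluster 6. Unthinned, cluster 6 had 45.9% and 38.6%, at 11229 and 12453 UMIs per cell. *Calr3* was found in 3.25% and 3.20% of cells in cluster 2 (13.6% and 17.8% unthinned) and in 96.6% and 96.3% in cluster 5 (100% of both unthinned). *Ace* was found in 75.4% and 83.3% of the cells of cluster 6 (94.7% and 96.9% unthinned). Of the 5 Leydig-like cells, at a median of 9856 UMIs, 1 had a UMI of *Clgn*, 0 of *Calr3* (which allows a level of up to 59.2 CPM) and 3 of *Ace*, with 3 *Ace* UMIs in all. Cells of cluster 5 held UMIs of 5.13 and 5.31 of the 8 genes on average, and cells of cluster 6 of 3.36 and 3.33.

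**Figure D3:**
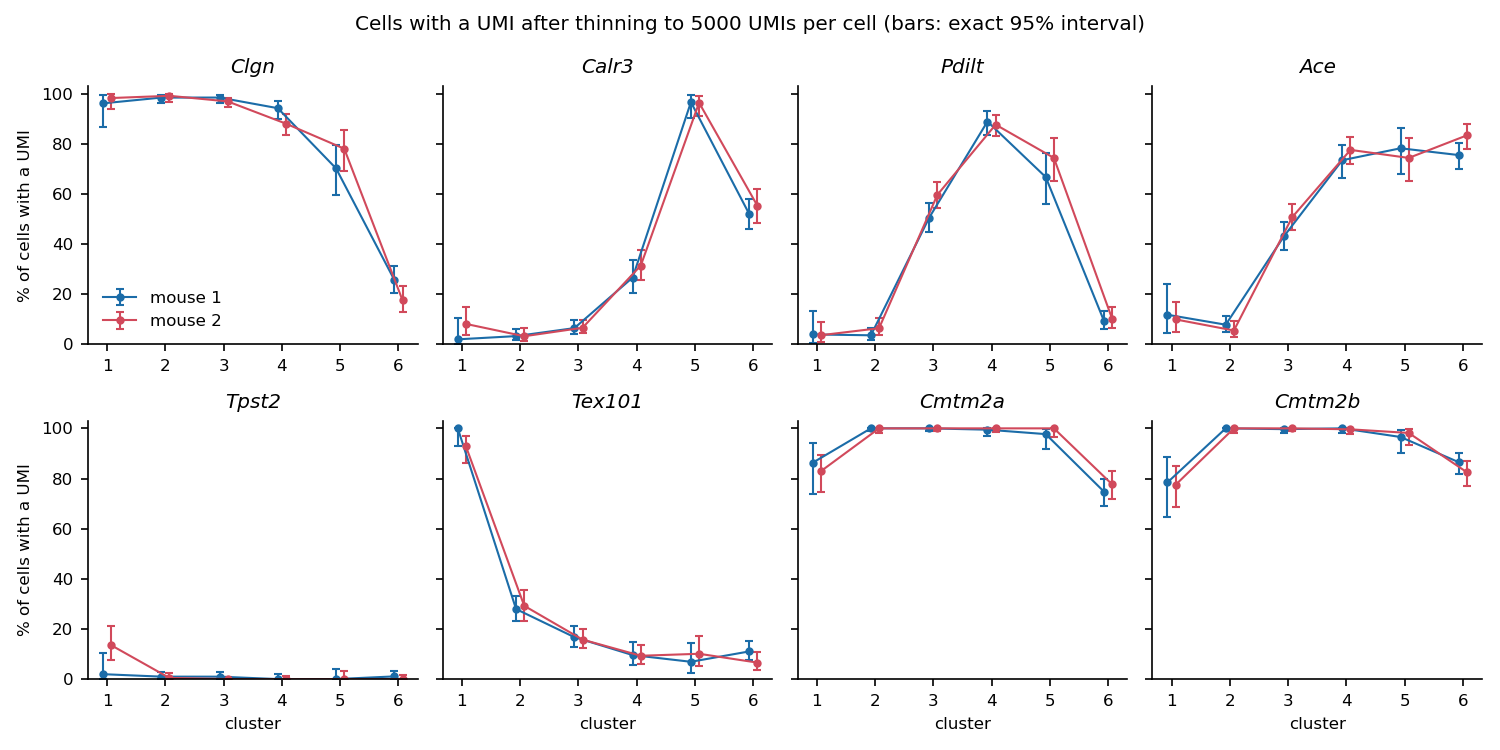
Share of cells with at least 1 UMI (y axis, in %) after thinning to 5000 UMIs per cell, by cluster (x axis) and mouse (blue and red), with exact 95% binomial intervals. *Calr3* goes from under 10% in clusters 1 to 3 to 96% in cluster 5, *Tex101* leaves cluster 1 at over 90%, and both *Cmtm2* genes stay above 70% throughout.

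Low values in early clusters have to be read beside free RNA. *Prm1* had 13261 CPM over all cells and 1869, 1287 and 2126 CPM in clusters 1, 2 and 3. The scaling takes these early *Prm1* counts as free RNA, which was not tested. If free RNA had the make-up of all captured cells, it would hold 21.9 and 15.05 CPM of *Ace* in clusters 1 and 2, where 19.2 and 14.6 CPM were measured over both mice, and 19.97 and 13.7 CPM of *Pdilt*, where 8.31 and 5.48 CPM were measured. The source of these counts was not tested, and neither gene is read as expressed there. In cluster 3, *Pdilt* (170 CPM) and *Ace* (141 CPM) were 7.48 and 5.66 times that level. *Tex101* was 5.59 times that level in cluster 2 and 1.61 times in cluster 3, *Tpst2* 9.66 and 1.70 times, and *Clgn* and both *Cmtm2* genes 3.92 to 15.8 times in clusters 1 to 3. *Insl3*, which germ cells do not make, had 9.74, 10.1 and 12.3 CPM in clusters 1, 2 and 3, with 5 Leydig-like cells captured. If these *Insl3* counts were free RNA, its make-up need not be that of all captured cells, and the scaling is an estimate. How far these multiples reflect expression was not tested. The part of free RNA in the low *Tex101* values of clusters 4 to 6 was not tested.

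The 3 chaperones were each set beside the relative that most cell types use. *Calr3* made up 27.4% and 28.2% of the summed UMIs of *Calr3* and *Calr* (calreticulin) in cluster 4 and 88.6% and 86.5% in cluster 5. *Calr* itself fell from 729 and 640 CPM in cluster 1 to 70.6 and 91.6 in cluster 5 and was called lower in 3 of 5 steps. *Pdilt* made up 97.9% and 98.4% of the pair with *P4hb* (protein disulfide isomerase) in cluster 3, and its UMIs in clusters 1 and 2 were at or below the level estimated for free RNA. *P4hb* was low, at 32.8 and 26.8 CPM in cluster 1 and 3.38 and 2.87 in cluster 3. It was called lower in the first 3 steps and higher in the last, on 4 and 6 UMIs in cluster 6 (edgeR adjusted p = 0.028, and 0.11 with total counts). The share holds for this pair only. In cluster 3, *Pdia3* had 333 and 256 CPM and *Pdia6* 174 and 149, against 157 and 179 for *Pdilt*. *Pdia4* (6.25 and 5.39 CPM) and *Pdia5* (1.01 and 1.92 CPM) were low there, and *Pdia2* had no UMI. *Clgn* differed from *Calr3* and *Pdilt*. It already made up 73.5% and 78.1% of the pair with *Canx* (calnexin) in cluster 1 and 91.4% and 90.8% in cluster 2. *Canx* fell in each of the first 3 steps, from 281 and 199 CPM in cluster 1 to 33.0 and 28.3 in cluster 4.

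**Figure D4:**
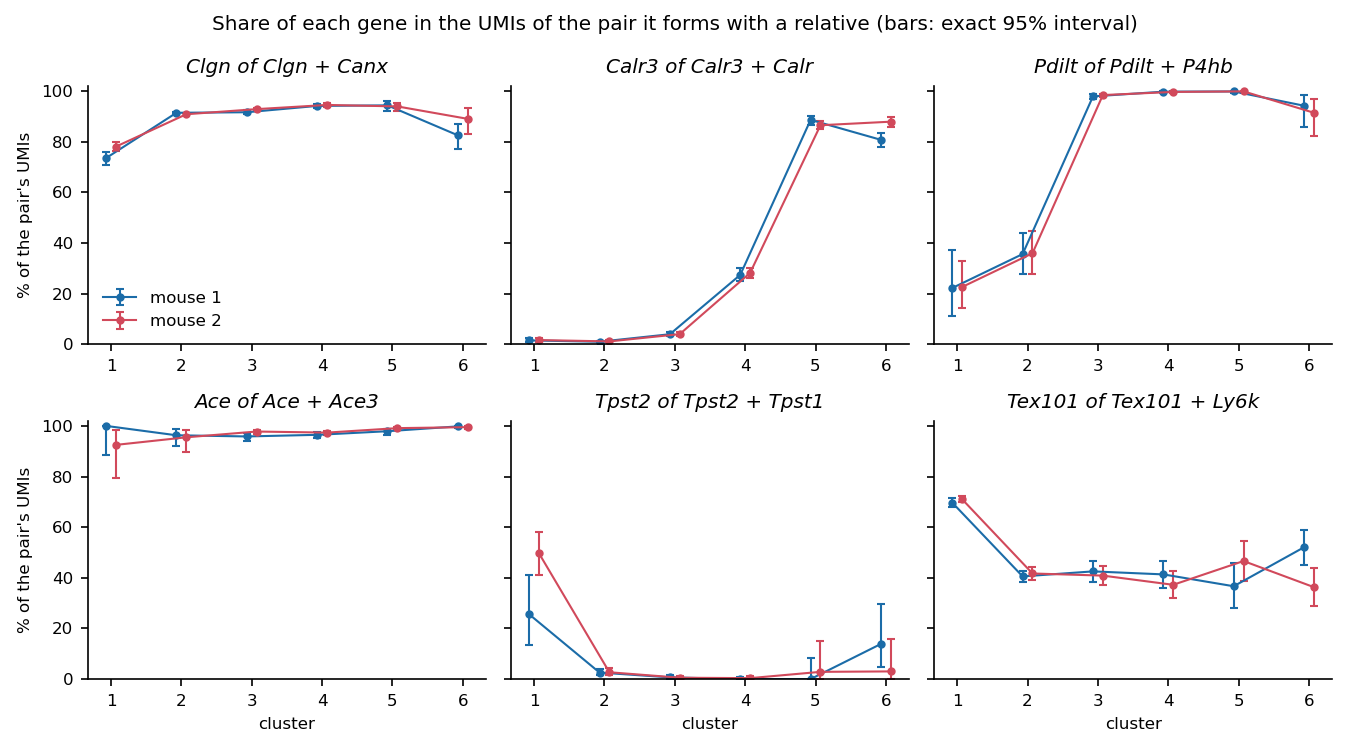
Share of a gene in the summed UMIs of the pair it forms with a relative (y axis, in %) by cluster (x axis) in mouse 1 (blue) and mouse 2 (red), with exact 95% binomial intervals. *Calr3* passes 80% in clusters 5 and 6, *Pdilt* passes 90% from cluster 3 on, *Clgn* is above 70% throughout, *Calr3* before cluster 4 and *Pdilt* and *Ace* before cluster 3 are at or below the level estimated for free RNA, and *Tpst2* drops under 3% in clusters 2 to 5.

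The enzymes and surface proteins gave another picture. *Tpst2* made up 25.6% and 49.7% of the UMIs of both tyrosine sulfating enzymes in cluster 1 and 2.58% and 2.70% in cluster 2. *Tpst1* rose from cluster 1 to 2 (log2 fold change 1.83 ± 0.18, edgeR adjusted p = 2.9e-08) and again to cluster 3 (0.45 ± 0.14, edgeR adjusted p = 0.010), where it stood at 122 and 110 CPM, before it fell from 4 to 5 (-1.93 ± 0.19, edgeR adjusted p = 2.0e-08). *Ace3*, with 197 UMIs, rose from cluster 2 to 3 (2.81 ± 0.48) and to 4 (1.31 ± 0.34), as *Ace* did. *Ly6k*, which encodes a GPI-anchored partner of TEX101, fell from 784 and 613 CPM in cluster 1 to 107 and 113 in cluster 2 (-2.39 ± 0.15, edgeR adjusted p = 2.7e-11). *Tex101* fell further, from 69.7% and 71.0% of the pair to 40.6% and 41.7%.

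*Lypd4*, a further member of the Ly6 family, stood at 660 and 681 CPM in cluster 2 and 593 and 695 in cluster 5, and fell into cluster 6 (-1.53 ± 0.16, edgeR adjusted p = 1.1e-07). Its step from 4 to 5 (0.39 ± 0.16, edgeR adjusted p = 0.049) had the opposite sign with total counts (-0.12). Of the other genes of the *Cmtm2* family, *Cmtm6* (323 UMIs) rose from 3 to 4 (0.93 ± 0.32) and fell from 4 to 5 (-1.19 ± 0.46), and *Cmtm1* (108 UMIs) rose from 1 to 2 (2.47 ± 0.87). *Cmtm3*, *Cmtm4*, *Cmtm5*, *Cmtm7* and *Cmtm8* had under 100 UMIs.

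The proteins that depend on these chaperones or meet them were taken as a list of 16 genes, all of which could be tested. In the 5 consecutive steps, 6, 8, 7, 8 and 4 were called higher and 4, 3, 4, 3 and 5 lower. Of all genes, 25.9%, 31.8%, 25.9%, 23.4% and 16.4% were called higher and 24.5%, 31.3%, 20.3%, 20.9% and 23.7% lower. The list medians were -0.36, 0.39, 0.14, 0.47 and 0.26 on the log2 scale with TMM, against 0.01, -0.04, -0.06, -0.07 and -0.01 for all genes. With total counts the median of the third step was -0.11, against -0.31 for all genes. In the last step 1 was higher and 6 were lower with total counts, against 6.11% and 36.7% of all genes. The median of that step was -0.33, against -0.60 for all genes. *Adam3*, the protein whose loss from sperm marks many of the mouse mutants, stood at 114 and 138 CPM in cluster 1 and 419 and 467 in cluster 2. It had 460 and 520 CPM in cluster 3, 403 and 465 in cluster 4, 332 and 367 in cluster 5, and 438 and 439 in cluster 6. Its highest bin was 20 in mouse 1 and 4 in mouse 2. *Adam3* rose in the last step under both scales (0.92 ± 0.15, edgeR adjusted p = 2.1e-05, and 0.33 with total counts, edgeR adjusted p = 0.041).

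The other genes of this list differed in where they were highest. *Adam2*, the partner of *Adam1b* in fertilin, had 468 and 453 CPM in cluster 2 and 25.4 and 23.8 in cluster 6, and was highest in bins 4 and 3. *Adam6b* rose from cluster 3 to 4 (log2 fold change 4.58 ± 0.21, edgeR adjusted p = 4.1e-13), from 2.87 and 2.27 CPM in which the part of free RNA was not tested, and, like *Adam4* and *Adam6a*, was highest in bin 16 in both mice, the bin of *Calr3*. *Adam6a* fell from 5 to 6 (-1.54 ± 0.14, edgeR adjusted p = 1.1e-08). *Prss37*, a trypsin-like protein needed for ADAM3, rose from 48.1 and 51.4 CPM in cluster 4 to 647 and 733 in cluster 5 (4.30 ± 0.22, edgeR adjusted p = 3.2e-13). *Pgap1*, which remodels GPI anchors, rose from cluster 2 to 3 (6.13 ± 0.47, edgeR adjusted p = 1.5e-10) and fell from 4 to 5 (-3.35 ± 0.63), with 305 UMIs in all. *Rnase10* (144 UMIs) rose from cluster 1 to 2 (2.98 ± 0.77, edgeR adjusted p = 0.0029), fell to 3.72 and 1.20 CPM in cluster 3, and had 0 CPM in cluster 4 in both mice.

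The general machinery of the ER was described by 3 lists, whose counts are to be read beside the shares of all genes called, which were 25.9%, 31.8%, 25.9%, 23.4% and 16.4% higher and 24.5%, 31.3%, 20.3%, 20.9% and 23.7% lower in the 5 steps. Of 33 tested genes of ER folding, 9, 5, 6, 5 and 8 were called higher and 13, 16, 15, 12 and 11 lower in the 5 steps, with medians of -0.22, -0.38, -0.35, -0.49 and 0.00. *Hspa5* (BiP), the main chaperone of the ER lumen, stood at 875 and 755 CPM in cluster 2 and fell from 511 and 380 in cluster 3 to 87.4 and 59.0 in cluster 4 (-2.36 ± 0.20, edgeR adjusted p = 1.7e-09). *Hyou1*, a chaperone of the ER lumen, rose from 4 to 5 (2.72 ± 0.65, edgeR adjusted p = 0.0014) to 3.38 and 3.18 CPM, after 34.6 and 29.3 in cluster 1, and *Ero1l*, an ER oxidase, fell from 9.18 and 6.72 CPM in cluster 5 to 0.282 and 0.321 in cluster 6 (-4.06 ± 0.64). The other genes with the largest called changes of this list were *Dnajb9* (1.97) and *Uggt1* (-3.92 ± 0.54) from cluster 1 to 2, *Tmx1* (1.61) and *Creld1* (-3.97 ± 1.54) from 2 to 3, *Tmx2* (2.58) from 3 to 4 and *Pdia4* (-2.35) from 4 to 5. Few counts underlie *Uggt1* and *Creld1*, with 69 and 37 UMIs in all. The same holds for *Pdia4* (SE 0.67), at 0.967 and 0.354 CPM in cluster 5, and for *Ero1l* in cluster 6. *Hyou1* rose from only 1.40 and 0.166 CPM in cluster 4. With total counts, 3 were higher and 20 lower from 4 to 5, against 17.4% and 39.5% of all genes. From 5 to 6, 0 were higher and 17 lower on that scale, against 6.11% and 36.7% of all genes. The median of the last step was -0.60 with total counts, against -0.60 for all genes.

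Of 14 tested genes of N-glycan transfer and trimming, 4, 2, 1, 1 and 0 were higher and 2, 8, 6, 5 and 4 lower, with medians of 0.00, -0.54, -0.40, -0.60 and -0.29. *Edem1*, a mannosidase-like protein of ER quality control, rose from 2 to 3 (2.16 ± 0.37, edgeR adjusted p = 2.6e-05), and *Prkcsh*, the beta subunit of glucosidase II, fell in that step (-2.14 ± 0.17, edgeR adjusted p = 3.6e-10). *Ganab*, the alpha subunit of that enzyme, rose from 1 to 2 (1.04) and fell from 3 to 4 (-1.43). Its rise was not called with total counts (0.79, edgeR adjusted p = 0.059). Further largest called changes were those of *Mogs* (-1.17, from 1 to 2), *Dad1* (-1.53, from 4 to 5) and *Edem1* (0.91 from 3 to 4 and -1.91 from 5 to 6). With total counts the step of *Edem1* from 3 to 4 was 0.66 and was not called (edgeR adjusted p = 0.062). *Stt3b* had 0.54 from 4 to 5, and 0.03 with total counts (edgeR adjusted p = 0.84). Of 27 tested genes of GPI anchor synthesis and remodelling, 4, 6, 4, 5 and 2 were higher and 11, 13, 5, 7 and 4 lower, with medians of -0.56, -0.58, -0.18, -0.24 and 0.25. The last median was -0.33 with total counts, against -0.60 for all genes. *Pgap1*, whose values are given above, had the largest rise of this list, from 2 to 3. *Pgap2*, which also acts on the finished anchor, rose from 3 to 4 (2.92 ± 0.19) and from 5 to 6 (1.04 ± 0.17), and *Pigh*, of the first enzyme of anchor synthesis, rose from 4 to 5 (3.63 ± 0.47) and fell from 5 to 6 (-2.57 ± 0.54). The others were *Mppe1* (3.21 ± 0.96) and *Dpm3* (-2.97) from 1 to 2, *Pigq* (-2.97 ± 1.06) from 2 to 3 and *Pigu* (-1.83) from 3 to 4. *Mppe1* and *Pigq* had 128 and 42 UMIs in all, and *Mppe1* had 0.936 and 0 CPM in cluster 1. Of 9 tested relatives of the 8 genes, 3, 2, 2, 1 and 2 were higher and 3, 4, 3, 3 and 1 lower. With total counts, all lists as 1 set had 2 of 93 genes higher and 39 lower from cluster 5 to 6, against 14 and 24 with TMM. Of all genes, 6.11% were higher and 36.7% lower in that step with total counts, and 16.4% and 23.7% with TMM.

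The genes whose course over the 20 bins was most like that of each member were taken by the lower of both mice's Pearson r among the genes with at least 1000 UMIs. For *Clgn* these were *Ash2l* (0.996 and 0.992), *Chrac1* and *Csnk1a1*, for *Calr3* *Ccdc185* (0.986 and 0.987), *1700030F04Rik* and *Ssx2ip*, and for *Pdilt* *Spaca3* (0.994 and 0.994), *Fam209* and *Efcab9*. For *Ace* they were *Allc* (0.995 and 0.995), *4930505A04Rik* and *Nupr1l*. *Iqcb1* led for both *Tex101* (0.976 and 0.971) and *Tpst2* (0.882 and 0.893), followed by *Mov10l1* and *Tex12* for *Tex101* and by *Chchd10* and *Hcfc1r1* for *Tpst2*. For *Cmtm2a* they were *Hrasls* (0.986 and 0.987), *Gtf2a1l* and *Adam32*, and for *Cmtm2b* *Prdx6b* (0.970 and 0.977), *Ppp3r2* and *Msto1*. Among the 8 genes, *Calr3* and *Clgn* ran against each other (-0.783 and -0.770), and *Tex101* and *Tpst2* together (0.874 and 0.961). These values describe 20 bins that share the libraries, and carry no test.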

How the data were processed

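UMI counts of 2 mice were read from the deposited matrix with all 2552 cells and 51868 rows kept. The authors made these counts with Cell Ranger 2.0.0 after demultiplexing with bcl2fastq 2.17.1.14, on a repeat-masked GRCm38 (mm10 in the submitters' processing notes) with the annotation of Ensembl and added repeat sequences, and combined the mice with downsampling of reads, which evens out depth per cell between the mice but not between cell types. Mice were told apart by the number at the end of the barcode.

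The members and lists were chosen with earlier results of these data known. Clusters came from K-means (K = 9, 10 principal components, seed 42, 10 restarts) on log values without 114 genes (members and lists), with scanpy 1.11.5 and scikit-learn 1.9.0. How many markers a name requires was decided with the clusters known. The 25 cells called as doublets by scrublet were kept. Clusters with at least 25 cells per mouse were summed per mouse, giving 12 sums, and tested with edgeR 4.0.16 (glmQLFit, TMM, filterByExpr, Benjamini-Hochberg at 0.05, R 4.3.3). The standard error was taken from the fold change and the F statistic. The procedure was tested on simulated data. Depth ranged from 7114 to 154431 UMIs per cell, and rare transcripts such as *Tpst2* are limited by it. Each mouse gave 1 sum per cluster, so the sums are paired by animal. Over 14108 genes their deviations from the cluster mean correlated between 0.033 and 0.229 (median 0.098, 15 pairs), and the mouse was a block in an alternative. Other alternatives were RLE factors, total counts, DESeq2 1.42.0, no filter, K = 10, Leiden clustering, another seed, 20 components, no doublets and thinning to 5000 UMIs.

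Named were the 8 members, the relatives with at least 100 UMIs, for each list the genes with the largest called change per direction and step in both mice, and 3 genes per member for likeness. *Adam2*, *Adam4*, *Pdia2*, *Pdia3*, *Pdia5* and *Pdia6* were named after their values were seen. The scaling of free RNA by *Prm1* was chosen after the levels had been seen. Positions came from GENCODE M21 and promoters from RefSeq, where 7 of 8 members had an entry, and alignments from Biopython 1.88.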

Additional observations from a re-analysis of the deposited data

How the results depend on the processing

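The counts of the 8 genes called in each step, in both directions, stayed within 1.5 times under RLE factors, DESeq2, K = 10, another seed and without doublets, and the mouse as a replicate block changed no call of the 40 fold changes of the 8 genes (for *Pdilt* from cluster 2 to 3, 4.98 with the block and without it). Total counts as the scale gave 2 lower from cluster 3 to 4, 1 higher and 4 lower from 4 to 5, and 0 higher and 5 lower from 5 to 6. No filter gave 1 higher and 3 lower from 4 to 5. Leiden clustering gave 0 lower from 4 to 5 and 1 higher from 5 to 6, 20 components gave 0 lower from 4 to 5, and thinning gave 1 lower from 1 to 2, 2 lower from 3 to 4, 0 lower from 4 to 5 and 1 higher from 5 to 6. For all lists, total counts gave 11 higher and 47 lower from 4 to 5 and 2 higher and 39 lower from 5 to 6, and no filter gave 11 and 45 from 4 to 5. In these 2 steps the median of all genes was -0.57 and -0.60 with total counts, and in the first of them -0.24 without the filter. With RLE factors it was -0.26 from 1 to 2 and 0.18 from 5 to 6. Over all genes, total counts gave 4648 lower from 3 to 4 (2862 with TMM), 2449 higher and 5577 lower from 4 to 5 (3308 and 2952) and 862 higher and 5184 lower from 5 to 6 (2313 and 3337), and no filter gave 5449 lower from 4 to 5. Thinning, which leaves fewer UMIs, gave 2198 lower from 1 to 2 (3450), 2627 higher and 2566 lower from 2 to 3 (4493 and 4409), 2293 higher from 3 to 4 (3660), 2056 and 1739 from 4 to 5 (3308 and 2952) and 1780 lower from 5 to 6 (3337). The cause of the changes under Leiden clustering and 20 components was not tested.

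Signs that turned, by member, were as follows. For *Pdilt*, from cluster 1 to 2, 0.052 without doublets and 0.43 thinned, and from 4 to 5, -0.38 with total counts and -0.39 without the filter. For *Ace*, from 1 to 2, 0.013 without the filter and 0.084 without doublets, and from 5 to 6, -0.027 with total counts. For *Tex101*, from 4 to 5, -0.11 with total counts and -0.12 without the filter. For *Cmtm2a*, from 2 to 3, -0.012 with total counts, from 3 to 4, -0.24 with total counts, -0.028 without the filter, -0.0021 with K = 10, -0.0021 with another seed and -0.19 thinned, and from 4 to 5, -0.38 with total counts and -0.39 without the filter. For *Cmtm2b*, from 3 to 4, 0.014 with RLE factors and 0.014 with DESeq2, from 4 to 5, -0.36 with total counts and -0.37 without the filter, and from 5 to 6, -0.53 with total counts. For *Lypd4*, from 4 to 5, -0.12 with total counts and -0.13 without the filter. Of these, the step of *Ace* from 5 to 6 and that of *Lypd4* had been called with TMM.

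With 1 mouse left out, no test remained, and the highest bin ranged from 3 to 4 for *Clgn*, 14 to 15 for *Pdilt*, 19 to 20 for *Ace*, 5 to 7 for *Cmtm2a* and 3 to 5 for *Cmtm2b*. It was bin 3 for *Clgn* and 15 for *Pdilt* after thinning and bin 4 for *Cmtm2a* with 20 components. Left-out mice gave 1012 to 1104 CPM for *Clgn*, 550 to 587 for *Calr3* and 10.3 to 29.3 for *Tpst2* in their highest clusters. The mean of CPM per cell in place of summed UMIs gave 1160 for *Clgn*, 643 for *Calr3*, 404 for *Pdilt*, 317 for *Ace*, 2221 for *Tex101* and 1846 for *Cmtm2b*. With 2 mice and 1 condition, p-values set changes between clusters against the spread between 2 littermates, estimated over all tested clusters together.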
